A study of Mus musculus with 4 samples.

Results

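Collagen chain genes were taken as the protein-coding genes whose symbol has the form Col, a number, a and a number (Col4a1, for example), which gave 44 of the 49585 genes measured. The RNA came from 4T1–HM and 4T1–LM, clones of the murine triple-negative breast cancer line 4T1 that were each grown from a single cell and have a high and a low metastatic capacity. Cells of each clone were cultured for 48 h with 50 μmol/L of deferasirox (DFX), an oral iron chelator, or with DMSO alone, and the 4 libraries are named HM_Ctrl, HM_DFX, LM_Ctrl and LM_DFX. There was 1 library per condition, so no difference below has a replicate check, no p-value is given, and a difference between HM and LM is a difference between 1 clone and another. The study's methods describe its experiments in general as done in triplicate and do not say whether a library holds RNA of 1 culture or of several.

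Collagens are extracellular proteins in which 3 chains wind into a triple helix, and some collagens use a single kind of chain while others need chains from different genes. Fibril-forming collagens build the cables of connective tissue, type IV collagens form the sheet-like network of the basement membrane under epithelia, and other classes link, coat or anchor these structures. The prolyl and lysyl hydroxylases that modify the chains need iron at their active site. In breast tumors most fibrillar collagen is made by fibroblasts, while carcinoma cells contribute chains of the basement membrane.

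The libraries held between 14363063 and 21883853 fragments assigned to genes, as recovered from the FPKM values (fragments of a gene scaled to its exon length and to the assigned fragments of the library), and collagen chain genes took 0.276% of them in HM_Ctrl against 0.108% in HM_DFX, and 0.310% in LM_Ctrl against 0.199% in LM_DFX. Of 6 markers of mammary epithelium and carcinoma, 5 reached an FPKM of 1 in a library, and Krt5, a basal keratin, was listed at 0 in all 4 libraries. The summed FPKM of these epithelial markers was 1489 in HM_Ctrl against 445 in HM_DFX, and 2076 in LM_Ctrl against 932 in LM_DFX, so it was lower with DFX in both clones as were many of the collagen values below. Its part in those values was not tested. Of 7 fibroblast markers, 2 reached an FPKM of 1 (Pdgfra and Postn), with a summed level of 3.35 to 6.36, and Pdgfrb, Lum and Thy1 were listed at 0 in all 4 libraries. None of 4 endothelial markers reached an FPKM of 1, and of 5 immune markers only Cd68 did, with 12.9, 37.4, 12.3 and 83.1 FPKM in HM_Ctrl, HM_DFX, LM_Ctrl and LM_DFX, while Ptprc stayed at or below 0.0139. In such bulk RNA, fewer cells that express a gene and less of its RNA per cell cannot be told apart.

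A gene was called expressed when its FPKM was at least 1 in at least 1 library, which 12669 genes met, and 14 of the 44 collagen chain genes were among them. The other 30 stayed below 1 in every library, 10 of them without a single fragment. The remaining 20 peaked between 0.00648 and 0.998 FPKM, 8 of them at 0.1 or more. Just inside the limit was Col27a1, with 1.05 FPKM in its highest library, and just outside it was Col1a1, with 0.998. Of the 14 genes, 9 passed in all 4 libraries, and Col6a1, Col11a2, Col20a1, Col2a1 and Col27a1 passed only through the libraries in which they were high. Counts over the 14 genes therefore describe these genes and say nothing about the other 30.

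Summed over all 44 genes, the collagen level was 396 FPKM in HM_Ctrl and 416 in LM_Ctrl, and with DFX it was 149 in HM_DFX and 268 in LM_DFX. The 6 genes of the basement membrane network gave 222 FPKM, or 56.2% of the sum, in HM_Ctrl and 84.0 FPKM, or 56.2%, in HM_DFX. In LM cells they gave 153 FPKM, or 36.8%, in LM_Ctrl and 134 FPKM, or 50.1%, in LM_DFX. LM_Ctrl held larger shares of the anchoring fibril collagen Col7a1 (15.8% against 4.96% in HM_Ctrl) and of the multiplexins, which are basement membrane collagens with interrupted helices (14.8% against 9.80%). The 11 fibril-forming genes together gave 24.1 FPKM in HM_Ctrl against 14.0 in HM_DFX, and 37.1 in LM_Ctrl against 16.4 in LM_DFX.

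**Figure D1:**
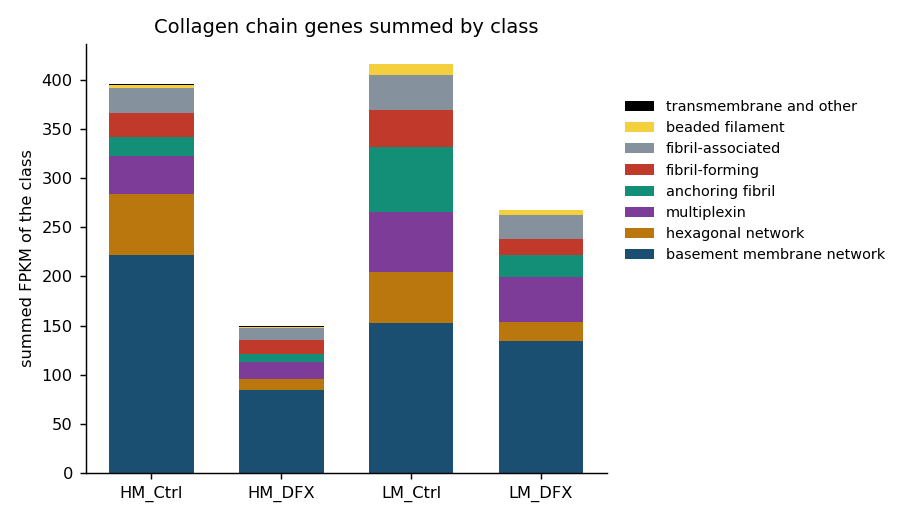
Summed FPKM of the collagen chain genes in each library, stacked by class, with 1 library per condition and no error bars. The full bars reach 396, 149, 416 and 268 FPKM from left to right, and the basement membrane network is the largest segment in each.

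In each comparison, a difference was called when FPKM + 1 differed at least 2-fold, and the log2 ratio of FPKM + 1 is given as the log2 change. The interval in brackets after a fold is the 95% Clopper–Pearson interval of the plain FPKM ratio, computed from the fragments of both libraries. It covers counting error only and not the variation between cultures. The comparisons share libraries (each library enters 2 of them), so their values are set side by side and not related to each other.

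Between the untreated clones, 2 collagen chain genes were higher in HM_Ctrl (Col2a1 and Col4a5) and 3 were lower (Col7a1, Col6a1 and Col12a1). Col2a1 passed the limit through HM_Ctrl alone, so the filter had set its direction here. Of all 12669 expressed genes, 3.65% were called higher and 3.15% lower. The median log2 change of the 14 genes was −0.22, and that of all expressed genes was 0.01.

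With DFX in HM cells, 10 of the 14 genes fell (Col8a1, Col4a1, Col16a1, Col2a1, Col4a2, Col5a1, Col7a1, Col4a5, Col18a1 and Col6a1) and 2 rose (Col11a2 and Col20a1), where 12.4% of all expressed genes fell and 6.93% rose. Col2a1 passed the limit through HM_Ctrl alone, and Col11a2 and Col20a1 through HM_DFX alone. The filter thus set the direction of their changes here. The median log2 change was −1.14 for the 14 genes and −0.10 for all expressed genes. Scaling the libraries by median ratios removed that overall shift and left 8 falls, with Col18a1 (log2 change of −0.97, from −1.11) and Col6a1 (−0.96, from −1.04) just under the limit. The same scaling moved the split over all expressed genes from 878 higher and 1568 lower to 1128 higher and 1277 lower, and the members' median to −1.02.

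In LM cells, 4 of the 14 genes fell with DFX (Col7a1, Col8a1, Col5a1 and Col16a1) and none rose, where 8.72% of all expressed genes fell and 7.09% rose. The median log2 change was −0.40, against −0.04 over all expressed genes. All 4 genes that fell in LM were among the 10 of the 14 that fell in HM. How many of all expressed genes fell in both clones was not counted. The call of Col16a1 in LM cells stood at the limit, with a log2 change of −1.0, and was not made after median-ratio scaling.

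**Figure D2:**
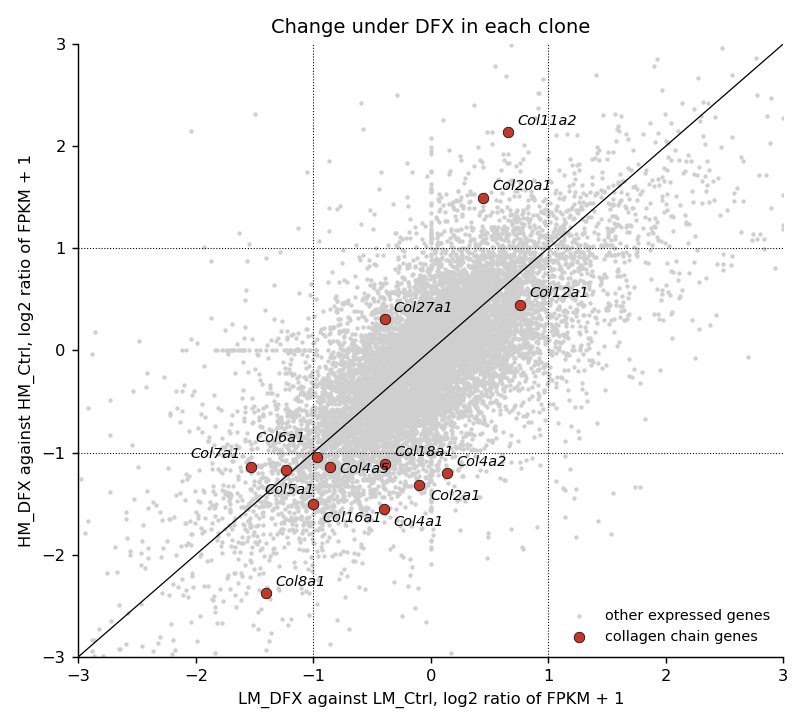
Log2 ratio of FPKM + 1 with DFX in HM cells (vertical axis) against LM cells (horizontal axis), with the 14 expressed collagen chain genes in red, the other expressed genes in gray (91 lie beyond the axes), dotted lines at 2-fold and a solid line of equal change. Col4a2, Col2a1 and Col4a1 lie below the line by more than 1 on the log2 scale, and Col11a2 and Col20a1 lie above it by more than 1.

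The difference of the log2 changes, HM minus LM, was at least 1 in size for 5 genes. It was 1.48 for Col11a2 and 1.05 for Col20a1, and −1.34 for Col4a2, −1.22 for Col2a1 and −1.16 for Col4a1. The filter favored these directions for Col11a2 and Col20a1, which passed it through HM_DFX alone, and for Col2a1, which passed through HM_Ctrl alone. Over all expressed genes, 3.52% reached 1 and 5.38% reached −1. Between the treated clones, Col11a2 and Col20a1 were higher in HM_DFX, where 3.31% of all expressed genes were. Both passed the limit through HM_DFX alone, so their direction here was set by the filter. Col6a1, Col12a1, Col18a1 and Col7a1 were lower in HM_DFX, where 5.05% of all expressed genes were.

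**Figure D3:**
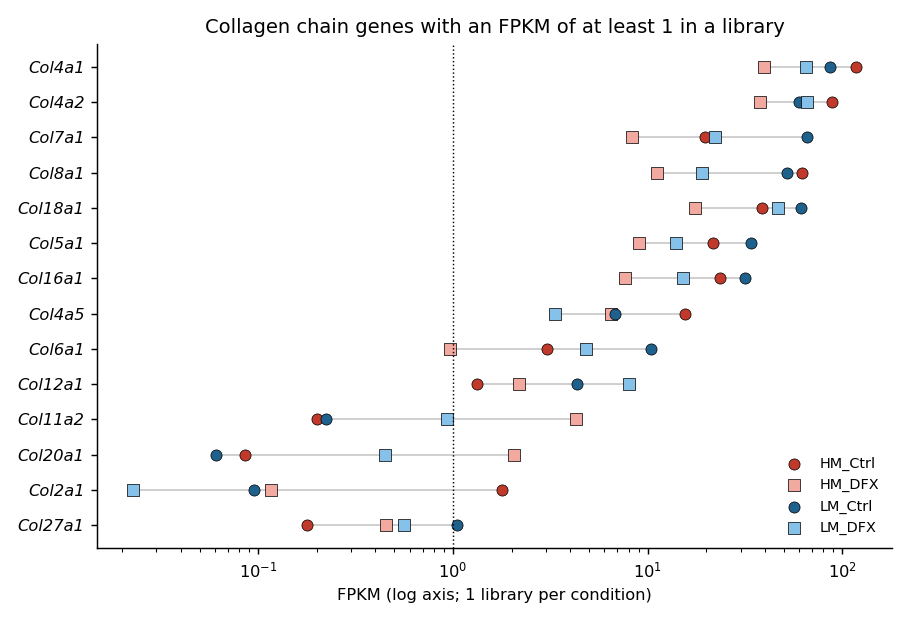
FPKM of the 14 expressed collagen chain genes in the 4 libraries on a log axis, with circles for DMSO, squares for DFX, red for HM, blue for LM and a dotted line at an FPKM of 1. For 10 of the genes the DFX square of HM lies to the left of its DMSO circle, and for Col12a1, Col11a2, Col20a1 and Col27a1 it lies to the right.

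Col4a1 and Col4a2 encode the chains of the most common type IV collagen, whose trimer takes 2 chains from the former and 1 from the latter. Col4a1 (ENSMUSG00000031502, chr8:11198423-11312826 of mm10, minus strand) had the highest level of any collagen chain gene in HM_Ctrl, HM_DFX and LM_Ctrl, with 118, 39.4 and 86.2 FPKM, and 65.1 in LM_DFX. It stood at the 97.2nd percentile of expressed genes in HM_Ctrl and the 88.5th in HM_DFX. Col4a1 fell with DFX in HM cells by 1.56 on the log2 scale, 2.99-fold lower (2.89 to 3.10). In LM cells it was 1.32-fold lower (1.29 to 1.36), which was not called.

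Col4a2 (ENSMUSG00000031503, chr8:11312805-11449287, plus strand) had 88.3 FPKM in HM_Ctrl against 37.9 in HM_DFX, and 59.6 in LM_Ctrl against 65.8 in LM_DFX. It fell 2.33-fold in HM cells (2.25 to 2.42), a log2 change of −1.20. In LM cells the level with DFX was 1.1-fold that of the control (1.07 to 1.14), a log2 change of 0.14 that was not called. Without DFX the levels of both genes were higher in HM cells, 1.37-fold for Col4a1 (1.33 to 1.40) and 1.48-fold for Col4a2 (1.44 to 1.53), under the 2-fold limit.

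The ratio of Col4a1 to Col4a2 within a library was 1.33 (1.30 to 1.37) in HM_Ctrl and 1.45 (1.40 to 1.49) in LM_Ctrl. With DFX it was 1.04 (0.995 to 1.09) in HM_DFX and 0.990 (0.963 to 1.02) in LM_DFX. In both clones the ratio was lower with DFX by more than the counting intervals, so the RNA of the chains stood near 1 to 1 in the treated cells.

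**Figure D4:**
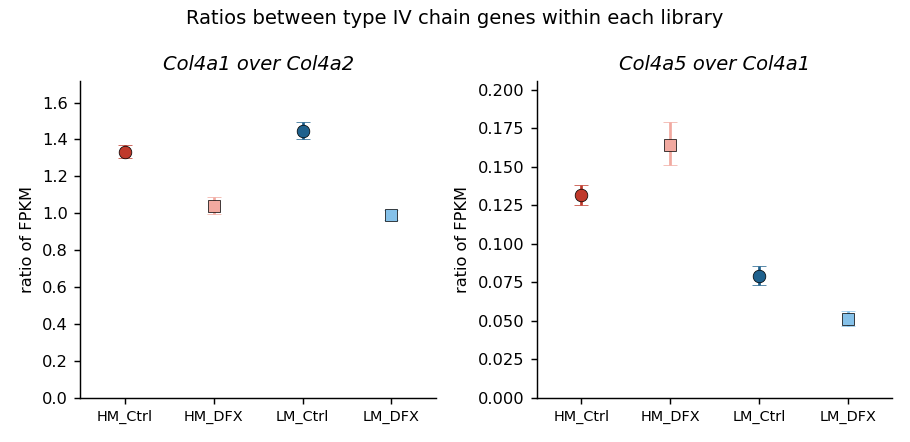
Ratios of FPKM within each library, Col4a1 over Col4a2 on the left and Col4a5 over Col4a1 on the right, with bars for the 95% counting interval and both axes from 0. The left ratio is 1.33 and 1.45 in the control libraries and 1.04 and 0.990 with DFX, and the right ratio is higher in both HM libraries than in both LM libraries.

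Col4a1 and Col4a2 lie head to head and are read outward from one shared start region, with 22 bases of their first exons in common on opposite strands. The strand setting of the counting is not known, so fragments over these bases may have counted for either gene, for both or for neither. The bases make up 0.295% of the exon bases of Col4a1 and 0.332% of those of Col4a2. The share of fragments that touch them was not measured. The start windows of both genes from RefSeq (250 bases before the start to 50 after it, GRCm38.p6, the build of mm10) are shown because they share 78 bases, chr8:11312777-11312854, which are in capitals and are the reverse complement of each other.
Col4a1: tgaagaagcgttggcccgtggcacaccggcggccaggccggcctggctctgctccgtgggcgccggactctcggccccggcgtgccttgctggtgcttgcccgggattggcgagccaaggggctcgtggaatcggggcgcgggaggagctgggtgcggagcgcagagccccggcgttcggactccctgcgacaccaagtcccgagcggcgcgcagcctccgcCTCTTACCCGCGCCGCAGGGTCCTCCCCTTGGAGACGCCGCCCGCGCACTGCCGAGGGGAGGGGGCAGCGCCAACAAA
Col4a2: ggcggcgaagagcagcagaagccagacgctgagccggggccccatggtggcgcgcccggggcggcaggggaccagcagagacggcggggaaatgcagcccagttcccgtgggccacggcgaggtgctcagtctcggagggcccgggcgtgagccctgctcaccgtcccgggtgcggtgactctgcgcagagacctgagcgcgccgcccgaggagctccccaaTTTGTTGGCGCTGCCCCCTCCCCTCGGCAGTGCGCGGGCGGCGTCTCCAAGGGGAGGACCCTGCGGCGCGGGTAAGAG

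The first window is chr8:11312777-11313076 on the minus strand and the second is chr8:11312555-11312854 on the plus strand. They hold 37 and 33 CG pairs, where the median of all 32851 mouse windows is 7. Both hold CCAAT and GGGCGG, counted on either strand, and neither holds TATAAA.

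Col4a5 (ENSMUSG00000031274, chrX:141475385-141689234, plus strand) encodes another type IV chain, which in skin and other epithelia can join with the product of its head-to-head neighbor Col4a6. It had 15.5 FPKM in HM_Ctrl against 6.48 in HM_DFX, and 6.83 in LM_Ctrl against 3.33 in LM_DFX. Unlike Col4a1, it was called between the untreated clones, with 2.27-fold more in HM_Ctrl (2.08 to 2.48), and its ratio to Col4a1 was 0.132 in HM_Ctrl and 0.0793 in LM_Ctrl. It fell 2.39-fold with DFX in HM cells (2.18 to 2.63). In LM cells it was 2.05-fold lower by FPKM (1.83 to 2.30), but the log2 change of FPKM + 1 was −0.85 and was not called.

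Col4a6 was below the limit with 0.532, 0.262, 0.279 and 0.109 FPKM in HM_Ctrl, HM_DFX, LM_Ctrl and LM_DFX, so Col4a5 exceeded it between 24.5-fold and 30.6-fold in every library. This gene and the other partner chains below the limit were named after their values were seen. The remaining pair of type IV genes, Col4a3 and Col4a4, which are known from the kidney filter, had at most 0.00699 FPKM and no fragment, respectively.

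Col18a1 (ENSMUSG00000001435, chr10:77052178-77166548, minus strand) encodes a multiplexin of basement membranes from which endostatin, an inhibitor of vessel growth, is cut. Its level was 38.8 FPKM in HM_Ctrl against 17.5 in HM_DFX, and 61.3 in LM_Ctrl against 46.6 in LM_DFX. It fell 2.22-fold in HM cells (2.10 to 2.35). In LM cells it was 1.32-fold lower (1.27 to 1.36), not called, and the HM_DFX level was 2.67-fold below that of LM_DFX (2.53 to 2.81).

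Col7a1 (ENSMUSG00000025650, chr9:108953586-108984875, plus strand) encodes the single chain of the anchoring fibrils that fasten the basement membrane to the tissue below it. It had 19.6 FPKM in HM_Ctrl against 8.33 in HM_DFX, and 65.9 in LM_Ctrl against 22.2 in LM_DFX. Both LM libraries stood above both HM libraries. Col7a1 was 3.36-fold lower in HM_Ctrl than in LM_Ctrl (3.23 to 3.49) and 2.66-fold lower in HM_DFX than in LM_DFX (2.50 to 2.84). It fell with DFX in both clones, 2.35-fold in HM (2.20 to 2.52) and 2.97-fold in LM (2.87 to 3.07).

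Col8a1 (ENSMUSG00000068196, chr16:57624258-57754737, minus strand) encodes a short-chain collagen of hexagonal networks, known from the cornea and from vessel walls. Its level was 61.8 FPKM in HM_Ctrl against 11.1 in HM_DFX, and 51.8 in LM_Ctrl against 18.9 in LM_DFX, so the control libraries stood together and apart from the treated ones. It fell 5.56-fold in HM cells (5.17 to 6.0), a log2 change of −2.37 and the largest fall of the 14 genes there on the scale of FPKM + 1 (by plain FPKM, Col2a1 fell further), and 2.73-fold in LM cells (2.59 to 2.88). Its usual partner chain Col8a2 had 1, 2, 7 and 4 fragments in HM_Ctrl, HM_DFX, LM_Ctrl and LM_DFX, against 815 to 5285 for Col8a1.

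Among fibril-forming genes, Col5a1 (ENSMUSG00000026837, chr2:27886425-28039514, plus strand) was the highest. Type V collagen starts and sizes fibrils of type I collagen and is usually built from chains of Col5a1 and Col5a2. Col5a1 had 21.7 FPKM in HM_Ctrl against 9.06 in HM_DFX, and 34.1 in LM_Ctrl against 13.9 in LM_DFX. It fell to a like degree in the clones, 2.39-fold in HM (2.23 to 2.56) and 2.44-fold in LM (2.33 to 2.56). The difference of the log2 changes was 0.06.

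Col5a2 had no fragment in any library, which allows at most 0.0143 to 0.0218 FPKM (3 fragments), so Col5a1 was at least 416-fold above it in each library. Col5a3, whose product can replace a chain in type V collagen, had 0 FPKM in HM_Ctrl against 0.0614 in HM_DFX, and 0.523 in LM_Ctrl against 0.805 in LM_DFX. These are 0, 6, 56 and 120 fragments, which put the LM libraries above the HM libraries at a level below the limit. Exons of Col5a1 overlap those of 2 genes on the opposite strand over 99 and 113 bases.

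Col1a1, Col1a2 and Col3a1, which encode the main fibrillar collagens of connective tissue, were all below the limit. Col1a1 had 0.282 FPKM in HM_Ctrl against 0.0424 in HM_DFX, and 0.998 in LM_Ctrl against 0.132 in LM_DFX, from 31, 4, 103 and 19 fragments. Each treated library held less than its control, by a ratio of 6.65 in HM (2.35 to 25.9) and 7.54 in LM (4.59 to 13.0). Col1a2 had 3, 0, 16 and 2 fragments in the same order, and Col3a1 had 1, 0, 1 and 0.

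The 2 genes that rose with DFX in HM cells were low without it. Both passed the limit through HM_DFX alone, so the filter itself made HM_DFX their highest library. Col11a2 (ENSMUSG00000024330, chr17:34039437-34066685, plus strand), a minor fibrillar chain of cartilage, had 0.201 FPKM in HM_Ctrl against 4.27 in HM_DFX, and 0.223 in LM_Ctrl against 0.93 in LM_DFX. The fragments were 23, 419, 24 and 139. The FPKM ratio was 21.2 in HM (14.0 to 33.9) and 4.16 in LM (2.69 to 6.72), while the log2 changes of FPKM + 1 were 2.13 and 0.66, since the pseudocount shrinks changes of low genes. Its partner chain Col11a1 had no fragment in any library.

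Col20a1 (ENSMUSG00000016356, chr2:180986535-181017540, plus strand), a fibril-associated collagen, had 0.0855 FPKM in HM_Ctrl against 2.06 in HM_DFX, and 0.0606 in LM_Ctrl against 0.447 in LM_DFX. The fragments were 6, 124, 4 and 41. It rose in HM cells with a ratio of 24.1 (10.8 to 66.9), and in LM cells the ratio was 7.37 (2.67 to 28.3) with a log2 change of 0.45 that was not called. With a pseudocount of 0.1 both genes were called higher in LM cells too, as were 10.6% of all expressed genes. Both treated clones thus held more fragments of Col11a2 and Col20a1 than their controls. HM_DFX held the most, which the filter had fixed for these genes.

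The RefSeq start windows of these 2 genes and of Col8a1, which fell in both clones, are shown to set genes that moved in opposite directions beside each other. Capitals mark the TATA box motif TATAAA, the motif CCAAT and the GC box motif GGGCGG on either strand.
Col11a2: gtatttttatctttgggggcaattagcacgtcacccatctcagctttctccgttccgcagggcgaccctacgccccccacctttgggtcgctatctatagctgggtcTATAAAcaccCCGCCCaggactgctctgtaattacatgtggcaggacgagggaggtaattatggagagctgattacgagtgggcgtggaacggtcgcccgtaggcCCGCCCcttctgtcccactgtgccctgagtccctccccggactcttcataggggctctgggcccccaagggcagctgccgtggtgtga
Col20a1: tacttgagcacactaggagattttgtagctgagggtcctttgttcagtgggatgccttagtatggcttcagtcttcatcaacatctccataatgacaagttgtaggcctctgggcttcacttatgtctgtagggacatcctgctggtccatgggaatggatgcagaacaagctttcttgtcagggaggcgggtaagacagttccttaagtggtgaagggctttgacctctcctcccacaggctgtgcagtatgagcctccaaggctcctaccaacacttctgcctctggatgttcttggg
Col8a1: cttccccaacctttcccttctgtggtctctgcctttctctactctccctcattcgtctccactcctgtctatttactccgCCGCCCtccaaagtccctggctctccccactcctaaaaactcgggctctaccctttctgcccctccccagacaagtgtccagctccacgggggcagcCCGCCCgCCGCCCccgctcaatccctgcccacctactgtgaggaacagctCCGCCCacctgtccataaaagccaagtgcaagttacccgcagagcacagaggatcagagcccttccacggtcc

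The windows are chr17:34038888-34039187 (plus strand), chr2:180986285-180986584 (plus strand) and chr16:57754688-57754987 (minus strand). The RefSeq start of Col11a2 lies before the gene start of the deposited table. Of the 14 genes, 12 had a window, and of the 2 windows of Col18a1 the first was used. The shares over all windows include genes not expressed here, and a link of the motifs to expression was not tested. The windows of Col4a1 and Col4a2 share bases and are not separate counts. GGGCGG was in 10 of the 12 and in 35.7% of all windows, CCAAT in 6 and 37.4%, and TATAAA in 1 (Col11a2) and 13.6%. Of motifs read by factors of the hypoxia response, ACGTG was in 2 of the 12 (Col5a1 and Col11a2) and in 19.6% of all windows, and GCGTG, which can overlap it, was in 4 and 32.4%. The median number of CG pairs was 16 in the 12 windows and 7 in all, and Col6a1 with 3 and Col20a1 with 1 were below that. The Col20a1 window held none of the 5 motifs.

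Col2a1 and Col27a1 each passed the limit through a single library. Col2a1 (ENSMUSG00000022483, chr15:97975602-98004695, minus strand), the chain of cartilage fibrils, had 1.79 FPKM in HM_Ctrl against 0.116 in HM_DFX, and 0.0953 in LM_Ctrl against 0.0228 in LM_DFX, from 180, 10, 9 and 3 fragments. Only HM_Ctrl stood out, 18.8-fold above LM_Ctrl (9.68 to 41.8), and the gene passed the limit through that library alone. Col2a1 fell 15.4-fold with DFX in HM cells (8.20 to 32.7). The filter had fixed HM_Ctrl as its highest library, and so the direction of both differences.

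Col27a1 (ENSMUSG00000045672, chr4:63214004-63334991, plus strand), another cartilage fibrillar chain, had 0.179 FPKM in HM_Ctrl against 0.454 in HM_DFX, and 1.05 in LM_Ctrl against 0.561 in LM_DFX. The ratio with DFX was 2.54 in HM (1.72 to 3.81), while in LM the level was 1.87-fold lower (1.52 to 2.31). Neither difference was called. Because Col27a1 passed the limit through LM_Ctrl alone, its lower level in LM_DFX was set by the filter.

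Col16a1 (ENSMUSG00000040690, chr4:130047840-130099283, plus strand) encodes a fibril-associated collagen and had 23.4 FPKM in HM_Ctrl against 7.62 in HM_DFX, and 31.5 in LM_Ctrl against 15.2 in LM_DFX. It fell 3.07-fold in HM cells (2.83 to 3.34) and 2.07-fold in LM cells (1.96 to 2.18). Without DFX the clones differed by 1.35-fold (1.28 to 1.42), which was not called.

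Col12a1 (ENSMUSG00000032332, chr9:79598991-79718831, minus strand) encodes a collagen that coats type I fibrils and is known from strained tissue. It had 1.33 FPKM in HM_Ctrl against 2.19 in HM_DFX, and 4.34 in LM_Ctrl against 8.06 in LM_DFX. Of the 9 genes that passed in all 4 libraries, this was the single one with a higher value in both treated libraries than in their controls, 1.64-fold in HM (1.42 to 1.89) and 1.86-fold in LM (1.73 to 2.00), neither called. Col12a1 was 3.25-fold lower in HM_Ctrl than in LM_Ctrl (2.88 to 3.69) and 3.69-fold lower in HM_DFX than in LM_DFX (3.34 to 4.07).

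Col6a1 (ENSMUSG00000001119, chr10:76708792-76726168, minus strand) encodes a chain of the beaded filaments of type VI collagen, which needs chains from other genes to leave the cell. Its level was 3.05 FPKM in HM_Ctrl against 0.970 in HM_DFX, and 10.4 in LM_Ctrl against 4.82 in LM_DFX. It was 3.4-fold lower in HM_Ctrl than in LM_Ctrl (2.92 to 3.97) and 4.97-fold lower in HM_DFX than in LM_DFX (3.80 to 6.60). It fell 3.15-fold with DFX in HM cells (2.36 to 4.25). In LM cells it was 2.15-fold lower (1.91 to 2.43), with a log2 change of −0.97 that was just not called.

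The partner chain Col6a2 had 0.158, 0.0418, 0.313 and 0.126 FPKM in HM_Ctrl, HM_DFX, LM_Ctrl and LM_DFX, between 19.4-fold and 38.2-fold less than Col6a1. Col6a3 had 0, 3, 1 and 25 fragments. Among the remaining chains of this class, Col6a4, named after its values were seen, had 1 fragment in each control library and 31 in HM_DFX and 42 in LM_DFX, so its FPKM never exceeded 0.253. Col17a1, a transmembrane collagen of the junctions that hold epithelia to the basement membrane and also named after its values were seen, had 0.673 FPKM in HM_Ctrl against 0.664 in HM_DFX, and 0.0772 in LM_Ctrl against 0.373 in LM_DFX. LM_Ctrl was the low library, and the ratio of LM_DFX to it was 4.83 (2.17 to 12.7).

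Collagen chains are modified, folded, trimmed and crosslinked by other proteins, and 60 genes of these steps, of collagen receptors and of collagen breakdown were examined, of which 42 were expressed. With DFX in HM cells, 4 of the 42 rose and 8 fell, where 6.93% and 12.4% of all expressed genes did. In LM cells, 5 rose and 6 fell, where 7.09% and 8.72% did. Their median log2 changes were −0.24 and −0.06. Between the untreated clones 4 were higher and 5 lower in HM_Ctrl, where 3.65% and 3.15% of all expressed genes were, and between the treated clones 0 were higher and 3 lower in HM_DFX, where 3.31% and 5.05% were. One listed gene, Mia2, matched several entries of the table and was left out.

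Genes of proline hydroxylation, which stabilizes the triple helix, were led by P4hb, the shared subunit of prolyl 4-hydroxylase and a disulfide isomerase. P4hb had 299 FPKM in HM_Ctrl against 616 in HM_DFX, and 243 in LM_Ctrl against 606 in LM_DFX and rose in both clones, by 1.04 and 1.31 on the log2 scale. P4ha1, the main catalytic subunit, had 46.6, 93.0, 24.3 and 121 FPKM in the same order. It rose in LM cells, with a log2 change of 2.27, and in HM cells its log2 change of 0.98 was just not called, while after median-ratio scaling it was 1.12 and P4ha1 was called there too. P4ha2, another catalytic subunit, had 9.50, 18.1, 3.53 and 20.4 FPKM, and rose in LM cells by 2.24, against 0.86 in HM cells. P4ha3 had at most 1.5 FPKM, in LM_Ctrl.

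The treated clones differed by −0.37 for P4ha1 and −0.16 for P4ha2 on the log2 scale (HM_DFX against LM_DFX), neither called, and of the controls LM_Ctrl was the lower for both genes. All 10 genes of this list were expressed. In HM cells 1 rose and 1 fell (6.93% and 12.4% of all expressed genes), and in LM cells 3 rose and 0 fell (7.09% and 8.72%). The gene that fell in HM was Crtap, with a log2 change of −1.43, against −0.87 in LM. The median log2 change of the list was −0.07 in each clone. In HM cells 3 genes were above 0 and 7 below, and in LM cells 5 were above and 5 below.

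Lysyl hydroxylases prepare the chains for sugar transfer and crosslinks, and none of the 4 expressed genes of this list was called with DFX in either clone. Plod2, the hydroxylase of the chain ends, had 41.3 FPKM in HM_Ctrl against 31.7 in HM_DFX, and 23.4 in LM_Ctrl against 38.7 in LM_DFX, with log2 changes of −0.37 in HM and 0.71 in LM. Plod1 had 5.87, 3.59, 4.67 and 7.53 FPKM, and Plod3 had 30.4, 27.8, 23.1 and 32.2. All 3 values were below the control in HM_DFX and above it in LM_DFX, but after median-ratio scaling the log2 change of Plod3 in HM cells turned from −0.12 to 0.01. The difference of the log2 changes, HM minus LM, was −1.17 for Plod1, −1.08 for Plod2 and −0.58 for Plod3.

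In folding and export, Serpinh1, the chaperone that binds folded collagen, had 118 FPKM in HM_Ctrl against 75.8 in HM_DFX, and 188 in LM_Ctrl against 112 in LM_DFX. Its log2 changes with DFX were −0.64 in HM and −0.74 in LM, not called. Hspa5, the general chaperone of the endoplasmic reticulum, rose from 472 to 2053 FPKM in HM cells and from 470 to 1051 in LM cells, log2 changes of 2.12 and 1.16. Of 9 expressed genes of this list, 2 rose in HM cells (6.93% of all expressed genes), 1 rose in LM cells (7.09%) and 0 fell in either.

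Of the 7 expressed genes of propeptide removal and crosslinking, 4 fell with DFX in each clone and none rose, where 12.4% of all expressed genes fell in HM and 8.72% in LM. The 4 genes were not the same. Bmp1, Pcolce and Loxl3 fell in both clones, Adamts14, a procollagen protease, was called in HM cells (log2 change of −1.16, against 0.23 in LM), and Pcolce2, a relative of Pcolce, was called in LM cells (−1.17, against −0.64 in HM). Bmp1, a protease that trims fibrillar procollagens, had 111 FPKM in HM_Ctrl against 36.1 in HM_DFX, and 112 in LM_Ctrl against 45.6 in LM_DFX. Pcolce, which enhances that protease, had 21.2, 1.77, 63.3 and 9.86 FPKM in the same order, log2 changes of −3.01 in HM and −2.57 in LM. Loxl3, a lysyl oxidase, had 11.5, 0.832, 5.97 and 1.71 FPKM, log2 changes of −2.77 and −1.36. The log2 changes of Bmp1 were −1.60 and −1.27. Lox was listed at 0 in all libraries but LM_DFX (0.0665 FPKM), and Loxl2 did not exceed 0.165 FPKM.

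Among receptors and breakdown genes, Mmp14, a membrane protease that cleaves fibrillar collagen, had 63.1 FPKM in HM_Ctrl against 9.04 in HM_DFX, and 67.1 in LM_Ctrl against 13.7 in LM_DFX. It fell in both clones, with log2 changes of −2.67 and −2.21. Of the 6 expressed genes of breakdown, 2 fell in HM cells and none rose, and 1 rose and 2 fell in LM cells. Of the 6 expressed receptors, 1 rose and 1 fell in HM cells, and none was called in LM cells. Over all expressed genes, 6.93% rose and 12.4% fell in HM, and 7.09% rose and 8.72% fell in LM.

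**Figure D5:**
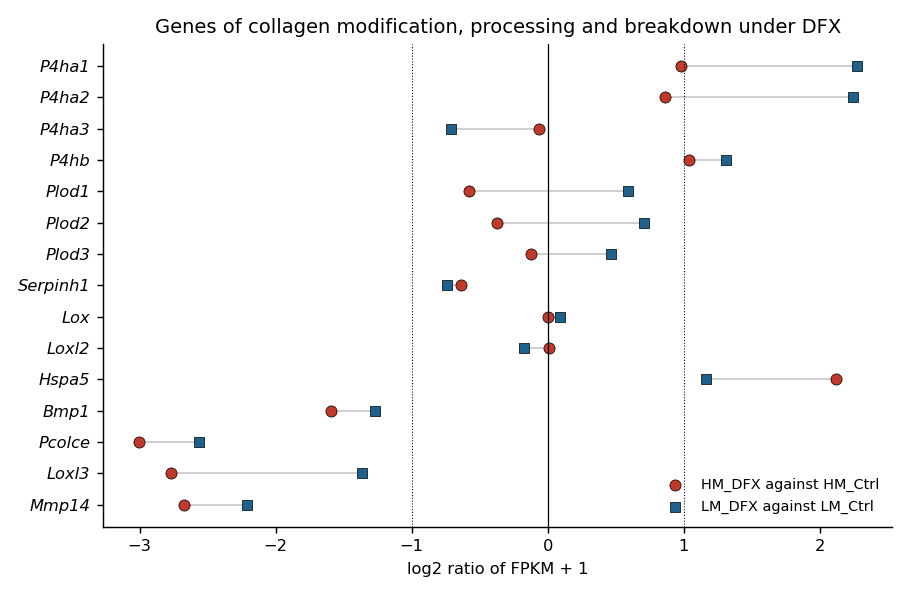
Log2 ratio of FPKM + 1 with DFX in HM cells (red circles) and LM cells (blue squares) for 10 genes of chain modification, folding and crosslinking and the further genes called in both clones, with dotted lines at 2-fold. P4hb and Hspa5 lie beyond the right dotted line in both clones, and Bmp1, Pcolce, Loxl3 and Mmp14 lie beyond the left one in both.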

How the data were processed

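Bulk RNA was measured in 4 libraries, HM_Ctrl, HM_DFX, LM_Ctrl and LM_DFX, grouped by their labels. The authors selected poly(A) RNA, made directional libraries, sequenced 150-bp paired-end reads and aligned them to mm10 with HISAT2 after FastQC and Trimmomatic. The submitters' processing notes also name featureCounts, and versions and the strand setting are not given in the sources used here. The authors deposited FPKM values for 49585 genes, low and zero values included and each library apart. FPKM are not counts, so no count test was run.

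Coordinates of 45128 genes equal those of GENCODE M21. With its exon lengths, 96.8% of 18236 genes above 0 gave whole fragments within 0.02. Of the 44 collagen chain genes, 39 did, among them the 10 at 0 in all libraries, for which this holds at any length. The other 5 (Col20a1, Col2a1, Col11a2, Col17a1 and Col8a1) did not, and their lengths were solved from their own values. Depth and 95% Clopper–Pearson intervals come from these fragments, cover counting error only, and a count of 0 allows 3 fragments. No gene of the 14 expressed shared more than 0.933% of its 31-mers with another gene.

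Genes that reached an FPKM of 1 in any library were kept, the pseudocount was 1, and at least 2-fold was called. Every expressed collagen chain gene was named, with Col1a1, Col1a2 and Col3a1. From the lists of collagen modification, 10 genes and each gene called with DFX in both clones were named. Crtap, Adamts14 and Pcolce2 were named after their values were seen, and not every gene called in a single clone was named. The members and lists were chosen with earlier results of these data known, and class names and lists were written from general knowledge. Alternatives were a pseudocount of 0.1, no filter, median-ratio scaling and thresholds of 1.5-fold and 4-fold. Promoter windows are from RefSeq. Python 3.11.15, pandas 2.3.3, NumPy 2.4.6 and SciPy 1.17.1 were used.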

Additional observations from a re-analysis of the deposited data

Results flagged for a closer look

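The change of Col4a2 with DFX had opposite signs in the clones, with a log2 change of −1.20 in HM cells and 0.14 in LM cells. That of Col27a1 was 0.30 in HM cells and −0.39 in LM cells, from 39 and 85 fragments in HM and 215 and 160 in LM. For both genes the counting intervals of both changes lie away from no change, but each side is 1 library, and the difference between the clones was not tested. Col27a1 passed the limit through LM_Ctrl alone, so the filter had set the sign of its change in LM cells.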

How the results depend on the processing

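None of the 14 expressed collagen chain genes changed the sign of its log2 change under median-ratio scaling. Counts of genes called beyond the range of 1.5 times the reported count came from the pseudocount and the threshold. With a pseudocount of 0.1, 2 genes (Col20a1 and Col11a2) of 14 were higher with DFX in LM cells, against 0, where the share over all expressed genes went from 7.09% to 10.6%. At 1.5-fold, 6 genes were lower in HM_Ctrl than in LM_Ctrl (8.70% of all expressed genes), 2 were higher with DFX in LM cells (16.5%, near the share of the 14 genes), 8 were lower in HM_DFX than in LM_DFX (14.6%), and 5 had an HM minus LM difference past the limit on the lower side (16.4%). At 4-fold, 1 gene rose (Col11a2, 0.876% of all expressed genes) and 1 fell (Col8a1, 1.31%) with DFX in HM cells, and 0 were called in each of the other comparisons and directions. With no filter, the counts were the same as reported for all 5 comparisons. The median log2 changes of the 14 genes after median-ratio scaling were −0.23 between the untreated clones, −1.02 with DFX in HM, −0.36 with DFX in LM and −0.64 between the treated clones. With a pseudocount of 0.1 they were −0.26, −1.24, −0.73 and −0.74 in the same order, and −0.73 in LM compares with −0.40 as reported. With no filter the median over all 44 genes was 0 in each. No paired analysis was possible because there is 1 library per condition, and leaving out a library would remove a condition. A count of 0 fragments limits Col5a2 to at most 0.0143 to 0.0218 FPKM, and genes with few fragments in a library, such as Col20a1, have wide counting intervals.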
